A study of Mus musculus with 7 samples.

Results

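The genes described here are 6 fibroblast growth factor genes (Fgf1, Fgf2, Fgf7, Fgf9, Fgf10 and Fgf13) and the 4 receptor genes Fgfr1, Fgfr2, Fgfr3 and Fgfr4. They make up 10 of the 18193 genes that have a probe set of their own on the array. Each gene is represented by the probe set that names it alone and has the highest mean over the 7 arrays, out of 24 probe sets in all for the 10 genes. 3 sets of arrays were compared. Adult bladders were 3 arrays of male FVB/N mice of Theiler stage 28, carrying a transgene in which the promoter of smooth muscle gamma-actin (SMGA, Actg2) drives enhanced green fluorescent protein. Postnatal day 1 bladders were 3 arrays of male FVB/N pups of Theiler stage 27 with the same transgene. The whole newborn pool was 1 array of wild-type FVB/N pups of postnatal day 1, in which 4 males and 4 females were combined whole. The title of the pool names bladders, but its source and dissection notes describe whole animals. The bladders were dissected whole, so they hold epithelium, muscle, connective tissue, vessels and nerves together. In such samples fewer cells of a type and less RNA per cell cannot be told apart. Adult bladders were kept in liquid nitrogen and newborn bladders in a freezer, so age and storage cannot be told apart either. The pool also differs from the bladders in genotype and sex.

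Fibroblast growth factors bind receptor tyrosine kinases together with heparan sulfate, and the activated receptors signal through Ras and the MAP kinases. Alternative splicing of Fgfr1, Fgfr2 and Fgfr3 yields forms that are typical of epithelium or of mesenchyme. Mesenchymal Fgf7 and Fgf10 act on the epithelial form of Fgfr2, and Fgf7 is a growth factor for the urothelium, the epithelium that lines the bladder. Fgf13 belongs to a branch of the family that stays inside the cell and binds sodium channels, and it is abundant in neurons. FGF signalling induces its own inhibitors, among them the Sprouty proteins and the phosphatase Dusp6.

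Median intensity was 226 to 312 in adult bladders, 209 to 290.27 in postnatal day 1 bladders and 434 in the newborn pool. The summed intensity of 15 urothelial markers was 281395 to 358849 in adult bladders, 294341 to 389606 in postnatal day 1 bladders and 65307.5 in the pool. Both lots of bladders thus carried urothelial transcripts. The most abundant of the markers were the keratins Krt8 and Krt18 and the uroplakin Upk1b. The sum of 8 smooth muscle markers was 289114 to 441257 in adult bladders, 286628 to 374074 in newborn bladders and 71641.6 in the pool. Adult replicates 1 and 3 also held transcripts of male accessory glands, with sums over 11 markers of 10688 and 10707, against 529 in the other adult bladder and 398 to 637 at postnatal day 1. None of those 11 markers passed the filter.

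Fgf1 and Fgf7 rose in adult bladder, Fgf13 fell, and the 4 receptors did not pass the test. Of the 10 genes, 2 were called higher and 1 lower (limma, Benjamini-Hochberg adjusted p under 0.05), where 5.88% of the 11929 genes tested were called higher and 6.61% lower, 12.5% in either direction. A gene was tested if its probe set lay above the median of its array on at least 3 of the 6 bladder arrays. Of the 10, 8 met this. Fgf1 met it through the adult arrays alone and Fgfr4 through the newborn arrays alone, so these 2 could enter the test only with a difference. Fgf2 and Fgf10 lay below the median on all 6 bladder arrays and were not tested.

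**Figure D1:**
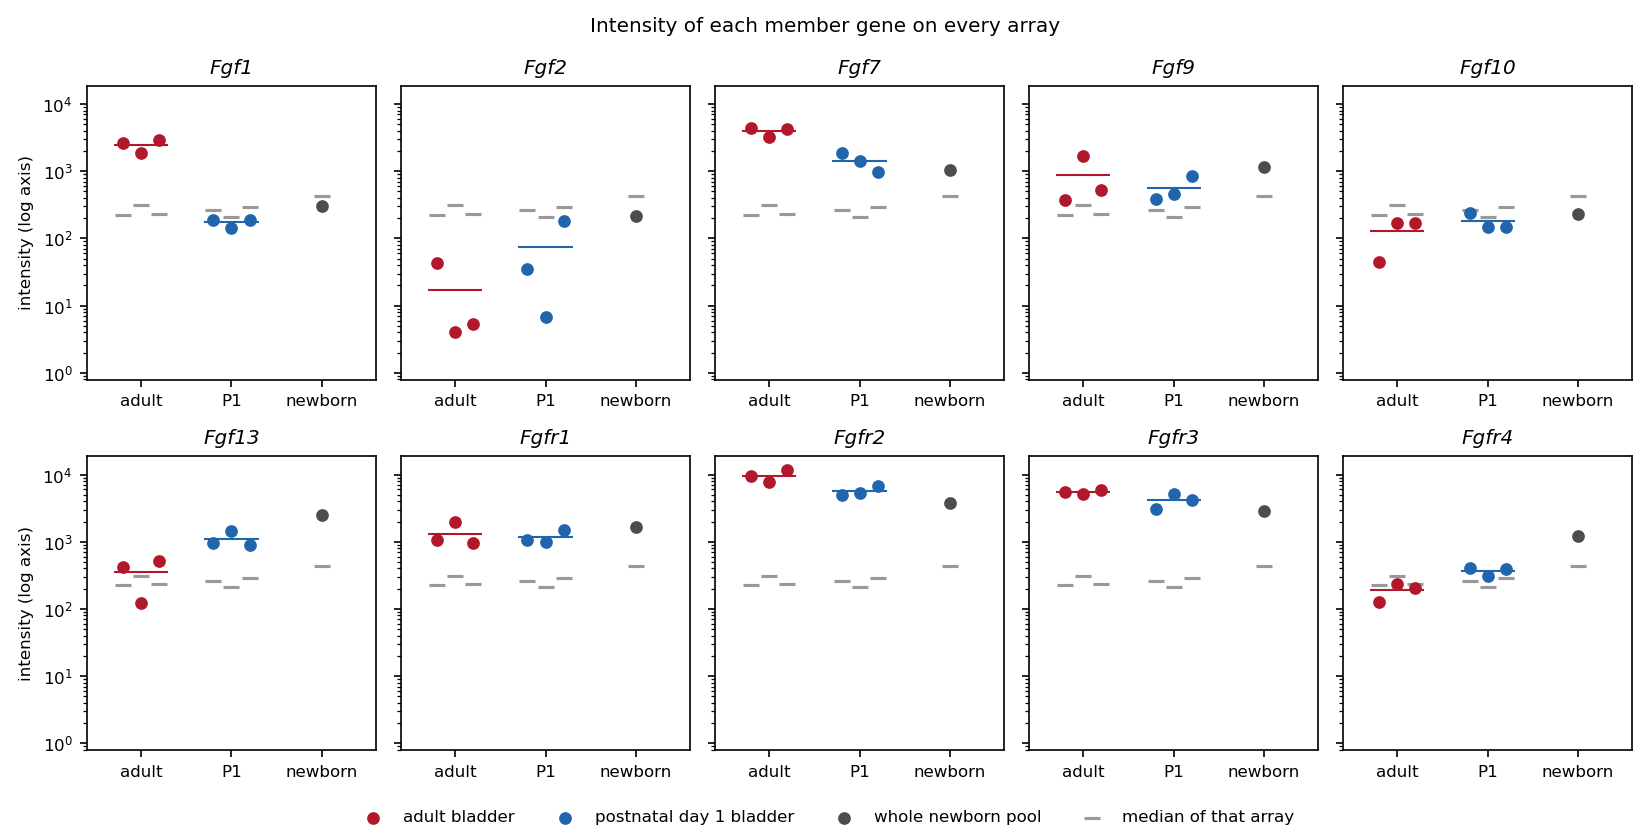
Intensity (log axis) of the 10 genes on each array, with adult bladder left, postnatal day 1 bladder in the middle and the whole newborn pool right. Points are arrays, coloured lines are means of 3 arrays and grey dashes are the median of each array; Fgf1 lies above the dash on the 3 adult arrays and below it on the 4 others.

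Fgf1, a ligand that can activate all of the FGF receptors and that leaves the cell without a signal peptide, had intensities of 2599.5, 1889.5 and 2892 in adult bladders, 189.95, 145 and 185 in postnatal day 1 bladders and 301 in the newborn pool. Every adult array was therefore far above every newborn array, whose values were below the array median. Adult bladder averaged 2460.35 ± 516 and newborn bladder 173 ± 24.8 (SD over 3 arrays each). On the scale of log2(intensity + 49) the difference was 3.48 (95% interval 2.79 to 4.17), which is 11.2-fold, with adjusted p = 0.000152. Among the 11929 genes tested Fgf1 held rank 22 by p, but it entered the test through the adult arrays alone. Without the filter its adjusted p was 0.00113. Because the newborn values are low, the size depends on the constant added before the logarithm: it was 3.74 with 10 and 2.82 with 200. The other probe sets of Fgf1 showed the same direction. The second read 1401 to 2082 in adult and 218 to 420.3 in newborn bladders (log2 difference 2.38, adjusted p = 0.00522 over all probe sets). The third was not tested and differed by 2.30. With adult replicate 2, the array without accessory gland transcripts, as the only adult array, the difference was 3.13 with adjusted p = 0.0139.

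Fgf7, also called keratinocyte growth factor, is made by mesenchyme and acts on epithelium. It had 4380.25, 3226 and 4257 in adult bladders, 1863, 1439.55 and 963 in postnatal day 1 bladders and 1029 in the newborn pool. The lowest adult value was 3226 and the highest newborn value 1863, so the ages did not overlap. The difference was 1.48 (95% interval 0.80 to 2.16), or 2.79-fold, with adjusted p = 0.0112. That call was lost without adult replicate 3 (1.42, adjusted p = 0.0515) and with adult replicate 2 as the only adult array (1.20, adjusted p = 0.174). The second probe set of Fgf7 was above the array median on 1 of the 6 bladder arrays and differed by 1.06 without a test. The sum of 8 mesenchyme markers, most of it from Col3a1, Col1a2 and Dcn, was 171351 to 310536 in adult and 211801 to 285721 in newborn bladders. Of the 8, 0 were called higher and 1 lower (Col1a1, -1.98, adjusted p = 0.00189), where 5.88% of all genes were called higher and 6.61% lower. Dcn and Thy1 read 0.72 and 0.88 higher without passing. The part of the mesenchyme markers in the Fgf7 difference was not tested.

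The Fgfr2 gene gives rise to the epithelial form that binds Fgf7 and Fgf10. It had 9479, 7657 and 11745.4 in adult bladders, 4972, 5332 and 6748 in postnatal day 1 bladders and 3778 in the newborn pool. The adult arrays were all higher than the newborn ones, but the difference of 0.75 (95% interval 0.18 to 1.32) had adjusted p = 0.0866. It was called without adult replicate 2 (0.90, adjusted p = 0.035), without adult replicate 2 and postnatal day 1 replicate 3 together (1.03, adjusted p = 0.0234) and with array weights (0.97, adjusted p = 0.00544). The other tested probe set of Fgfr2 differed by -0.19 (adjusted p = 0.884), and the third, untested, by -0.02. The array data do not name the splice forms these probe sets read. Urothelial markers summed over 15 genes overlapped between the ages, as given above. Of the 15, 1 was called higher and 0 lower, where 5.88% of all genes were called higher and 6.61% lower. The 1 called was Trp63 (0.995, adjusted p = 0.0137). It had 27480, 20957 and 29511 in adult bladders and 13218, 14196 and 11366.5 in newborn bladders. The part of the urothelial markers in the Fgfr2 values was not tested.

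The 250 bases before the start of Fgf7 and of Fgfr2, a mesenchymal ligand and its epithelial receptor, are shown because both read higher in every adult array. The sequences are from RefSeq, build GRCm38.p6, written 5′ to 3′ with each CG dinucleotide in capitals.
Fgf7, chr2:126034408-126034657, plus strand: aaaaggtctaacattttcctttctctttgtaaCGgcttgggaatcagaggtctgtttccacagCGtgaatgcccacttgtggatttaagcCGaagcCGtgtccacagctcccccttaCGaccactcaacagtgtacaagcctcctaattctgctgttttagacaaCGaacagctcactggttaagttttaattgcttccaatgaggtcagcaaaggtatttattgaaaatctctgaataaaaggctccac
Fgfr2, chr7:130266809-130267058, minus strand: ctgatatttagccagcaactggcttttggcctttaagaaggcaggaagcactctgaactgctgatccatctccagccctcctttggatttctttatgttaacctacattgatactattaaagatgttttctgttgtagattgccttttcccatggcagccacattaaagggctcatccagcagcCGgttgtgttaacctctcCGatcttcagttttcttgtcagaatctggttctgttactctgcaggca
The Fgf7 window held 6 CG, the same as the median of 32851 promoter windows of this length, and the Fgfr2 window held 2. Their G and C content was 43.6% and 44%, against a median of 52.4%. Neither held a GC box (GGGCGG on either strand), which 32.7% of the windows held, nor TATAAA on either strand, which 12.4% held.

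Fgf10, the other mesenchymal ligand of Fgfr2, had 43.9, 169 and 169 in adult bladders, 243, 150.09 and 150.39 in postnatal day 1 bladders and 233 in the newborn pool. The ages overlapped at values that lay below the array median throughout, and the untested difference was -0.46 (95% interval -1.43 to 0.50). Fgf2, a widely expressed ligand without a signal peptide, had 42.5, 4.1 and 5.33 in adult bladders, 35.4, 6.85 and 183 in postnatal day 1 bladders and 213 in the pool. Its single probe set was below the median on all 7 arrays, and no order of the ages can be read from it.

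Fgf9, a ligand of the mesenchymal receptor forms, had 379, 1705 and 528 in adult bladders, 384, 461 and 847 in postnatal day 1 bladders and 1138 in the pool. The difference between the ages was 0.38 (95% interval -0.76 to 1.51, adjusted p = 0.686). Its second probe set, untested, had 143, 219 and 161 in adult bladders and 257, 199 and 372 in newborn bladders, a difference of -0.52, and the mean of both probe sets gave -0.07. Within each age 1 array was high, adult replicate 2 and postnatal day 1 replicate 3. The same 2 arrays were the high ones for Fgfr1, the receptor typical of mesenchyme, which had 1057, 1936 and 958 in adult bladders, 1057, 991 and 1488 in newborn bladders and 1683 in the pool. Fgfr1 differed by 0.11 between the ages (95% interval -0.64 to 0.86, adjusted p = 0.873). Of the other probe sets of Fgfr1, the untested one read 103, 651 and 201 in adult bladders and 134, 107 and 440.16 in newborn bladders, high on the same 2 arrays. The tested one read 1221, 1341 and 938 in adult bladders and 1330.3, 1293 and 994 in newborn bladders (-0.05, adjusted p = 0.944 over all probe sets), with postnatal day 1 replicate 3 the lowest of its age. Across the 6 bladder arrays the log2 values of Fgf9 and Fgfr1 correlated with r = 0.94, the highest value among pairs of the 10 genes. The arrays share their scaling, and the 2 high arrays were also those with the highest median intensity of their age, 312 and 290.27. The part of that in the correlation was not tested. Without these 2 arrays the differences were 0.08 for Fgf9 and -0.02 for Fgfr1. Without adult replicate 2 alone they were -0.23 and -0.20, and with array weights -0.02 and -0.17, so neither sign was stable.

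Fgfr3, a receptor of the urothelium whose human counterpart is often mutated in bladder cancer, had 5500.35, 5167 and 5962 in adult bladders, 3051, 5088 and 4224 in postnatal day 1 bladders and 2854 in the pool. The adult arrays were again all higher, by a narrow margin over postnatal day 1 replicate 2. The difference was 0.45 (95% interval -0.14 to 1.05) with adjusted p = 0.317, so the interval still allows a rise of 2.07-fold. The second probe set of Fgfr3 was not tested and differed by -0.18.

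Fgfr4, a receptor found in liver and in muscle precursor cells, had 126, 238 and 204 in adult bladders, 413, 304 and 389 in postnatal day 1 bladders and 1205 in the pool. The ages did not overlap, and the adult values were below the median of their arrays. The difference was -0.83 (95% interval -1.67 to 0.01), with adjusted p = 0.187. The other 4 probe sets of Fgfr4 were not tested and differed by -0.33 to 0.12. Skeletal muscle markers, led by Acta1, Myh8 and Tnnc2, moved along with Fgfr4. Their sum over 10 genes was 17789 to 19124 in adult bladders, 75265 to 111381 in newborn bladders and 325658 in the pool. Of 7 tested, 0 were called higher and 6 lower in adult bladder, where 5.88% of all genes were called higher and 6.61% lower. Of those called, Myh3, Myh8, Tnnc2 and Tnnt3 lay below the array median on every adult array. They entered through the newborn arrays alone and could be tested only with a difference. The part of the skeletal muscle markers in the Fgfr4 values was not tested. The liver markers, summed over 5 genes, were 6244 to 9347 in adult bladders, 1593 to 11168 in newborn bladders and 394941 in the pool.

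**Figure D2:**
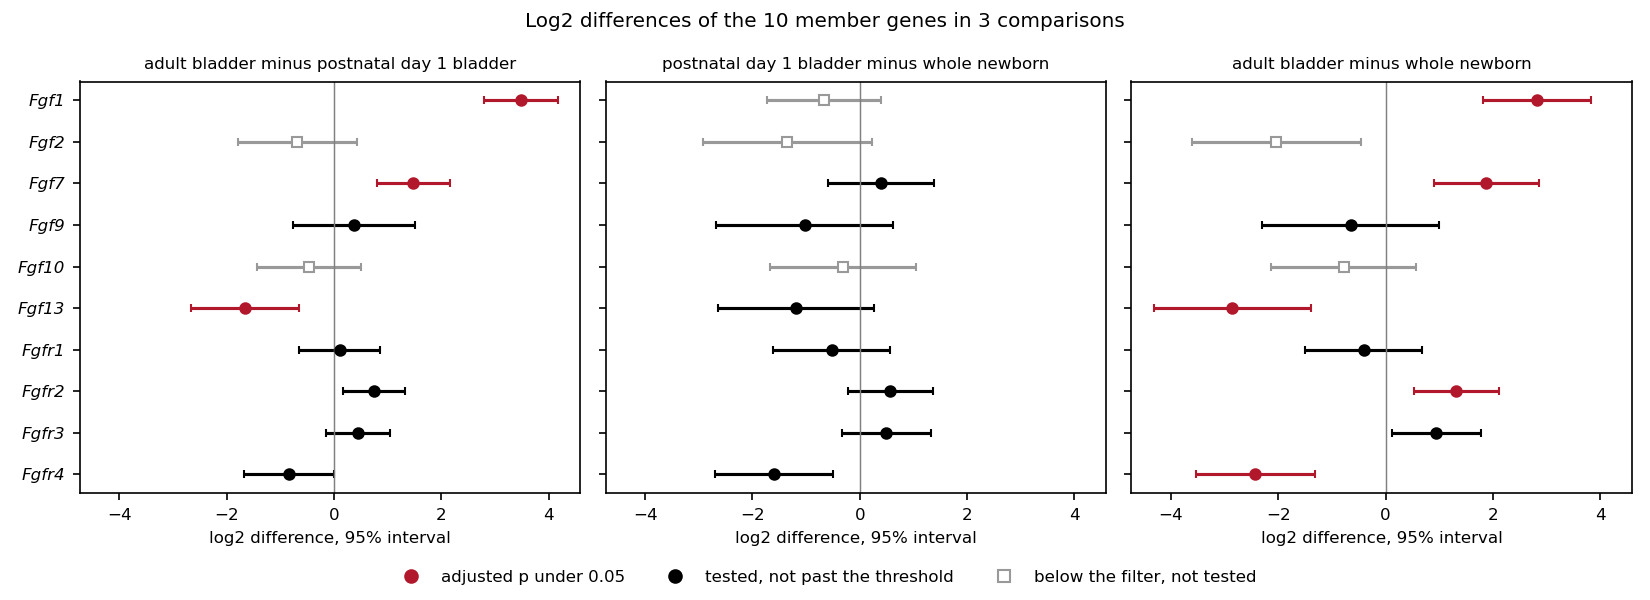
Log2 differences of the 10 genes with 95% intervals for adult against postnatal day 1 bladder (left), postnatal day 1 bladder against the whole newborn pool (middle) and adult bladder against the pool (right). Red points passed the test, black points did not and open squares were not tested; the left panel has 3 red points, the middle none and the right 5.

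Fgf13, the intracellular family member, had 424, 123 and 519 in adult bladders, 954, 1467 and 901 in postnatal day 1 bladders and 2541 in the pool. Adult replicate 2 stood apart at the low end, and no adult array reached the lowest newborn one. The difference was -1.66 (95% interval -2.67 to -0.64) with adjusted p = 0.0396, which makes the newborn level 3.15-fold the adult one. The call was not stable. It was lost without any 1 of the 3 newborn arrays (adjusted p from 0.0759 to 0.136), with median centring (0.086), with quantile normalization (0.0711), without the filter (0.0801), with the mean of the probe sets (-0.89, 0.129) and when p-values were adjusted over all probe sets (0.0702). Its second probe set was low on all arrays and differed by -0.13 without a test. Without adult replicate 2 the difference was -1.12 (adjusted p = 0.0489), and with it as the only adult array -2.72 (adjusted p = 0.0152).

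The summed level of peripheral neuron markers was low and high on the same bladder arrays as Fgf13. The most abundant markers were Stmn2, Uchl1 and Snap25. The sum over 12 genes was 10489, 5880 and 10139 in adult bladders, 15934, 21525 and 14153 in postnatal day 1 bladders and 22424 in the pool. The array with the least Fgf13, adult replicate 2, had the lowest marker sum, and of the bladder arrays the one with the most Fgf13, postnatal day 1 replicate 2, had the highest. Of the 12 markers 0 were called higher and 4 lower in adult bladder (all genes, 5.88% higher and 6.61% lower). Their median difference over all 12 was -1.45. The markers were not alike: Uchl1 had 1793, 3871 and 1654 in adult bladders and 2033, 2466 and 2874 in newborn bladders, highest on adult replicate 2 (-0.11, adjusted p = 0.880), and Syt1 differed by -0.38 (adjusted p = 0.577). Among the 4 called, Gap43, a protein of growing axons, had 275, 13.1 and 168 in adult bladders against 949.7, 1421 and 1016 in newborn bladders. Phox2a, a transcription factor of autonomic neurons, was lower in all adult arrays at 69.98, 94.9 and 149, against 749, 924 and 485 in newborn bladders. Phox2a and Elavl3, also among the 4, lay below the array median on every adult array. They entered through the newborn arrays alone and could be tested only with a difference. Dbh, also among the 4, had 353, 383 and 413 in adult bladders and 1031, 1132 and 861 in newborn bladders. Among the called markers, adult replicate 2 was the lowest adult array for Gap43 and Elavl3 but not for Phox2a and Dbh. The part of the neuron markers in the Fgf13 difference was not tested.

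**Figure D3:**
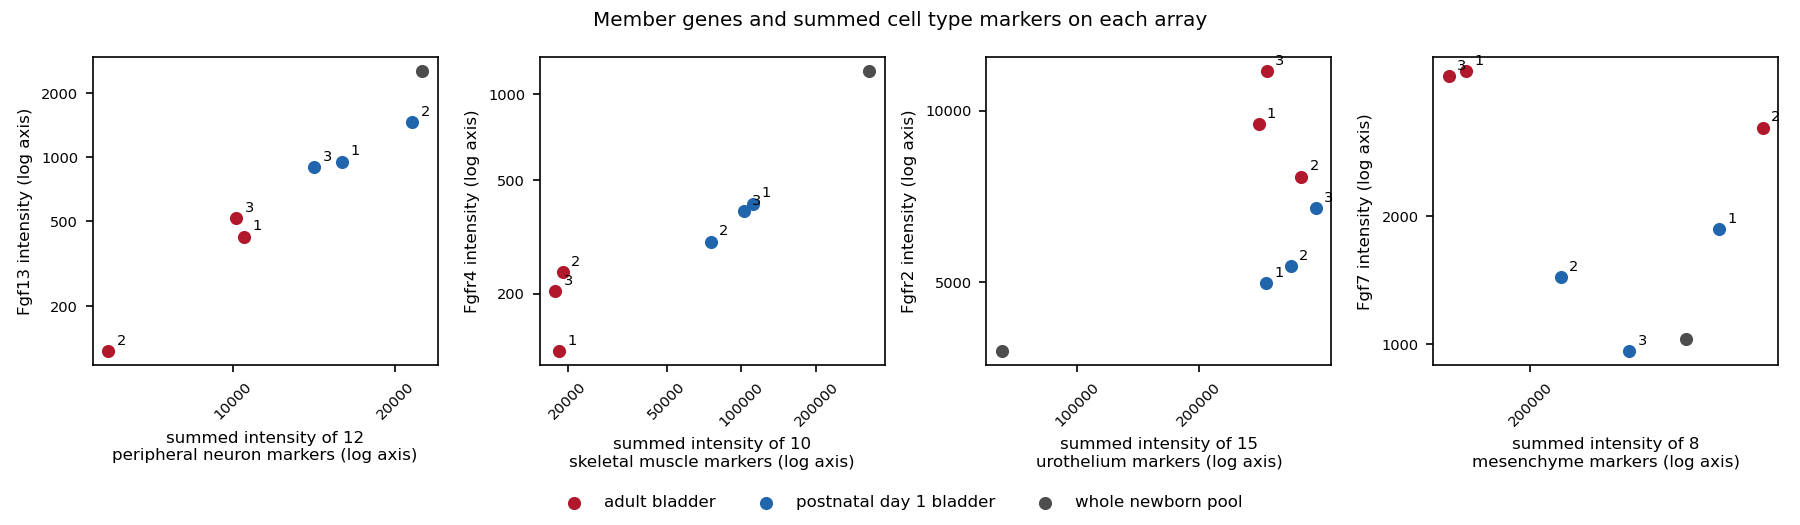
Intensity of Fgf13, Fgfr4, Fgfr2 and Fgf7 (vertical, log axis) against the summed intensity of peripheral neuron, skeletal muscle, urothelium and mesenchyme markers (horizontal, log axis) on each of the 7 arrays, with replicate numbers beside the bladder points. Fgf13 is lowest on adult replicate 2, where the neuron sum is 5880, and highest in the pool, where it is 22424, while Fgf7 shows adult and newborn points at overlapping mesenchyme sums.

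Among the 11928 other genes tested, those with log2 values most like Fgf1 over the 6 bladder arrays were Mst1 (r = 0.9968), Ttll7 (0.9966) and Hal (0.9956). The genes most like Fgf7 were Ppp1r2 (0.9972), Ttc12 (0.9965) and Prpf18 (0.9962), and those most like Fgf13 were Hmga2-ps1 (0.9966), Cibar1 (0.9962) and Pirt (0.9959). These values rest on 6 arrays in groups of 3, so they describe a match to a step between ages and to the order of arrays within an age. Ttll7, which encodes a tubulin-modifying enzyme, read 18368, 14845 and 20180.3 in adult bladders and 2042, 1186 and 1657 in newborn bladders. Among the 10 genes themselves, Fgf1 correlated with Fgf7 at 0.94 and with Fgfr2 at 0.90.

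In newborn bladder none of the 10 genes differed from the whole newborn pool past the threshold. Of the 10, 7 were tested, with 0 called in limma and 1 at an unadjusted p under 0.05, where 13.2% of the 13744 genes tested were called, 4.78% higher and 8.42% lower. Here a gene was tested if it lay above the array median on 1 of the 4 arrays, and the pool, a single array, was assumed to vary like the bladder arrays. Fgfr4 was lowest relative to the pool, at a mean of 369 ± 57.3 in newborn bladder (SD, n = 3) against 1205 in the pool (-1.60, 95% interval -2.70 to -0.49, adjusted p = 0.0623). It was called with the constant 200 (-1.31, 0.0210), without a trend in the variance (0.037), with array weights (0.0242) and without adult replicate 2 (0.0449). Fgf13 differed by -1.20 (95% interval -2.65 to 0.26) and Fgf9 by -1.03 (-2.68 to 0.62). Fgf7, Fgfr2 and Fgfr3 read 0.40, 0.57 and 0.49 above the pool, with intervals that include 0, and Fgf7 differed by -0.10 with the mean of its probe sets.

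Adult bladder differed from the pool in more of the family. Fgf1, Fgf7 and Fgfr2 were higher, and Fgf13 and Fgfr4 lower, 5 of the 8 tested, where 20.2% of 13504 genes were called. Higher calls made up 8.25% of all genes and lower calls 12% of them. Fgf1 was 2.82 above the pool (95% interval 1.81 to 3.83, adjusted p = 0.00187) and Fgf7 1.88 above it (0.89 to 2.87, adjusted p = 0.014). Fgfr2 was 1.32 above it (0.52 to 2.11, adjusted p = 0.0265). Fgfr4 averaged 189 ± 57.9 in adult bladder (SD, n = 3) against 1205 in the pool, a difference of -2.43 with adjusted p = 0.00724. Fgfr4 entered this comparison through the pool alone and Fgf1 through the adult arrays alone, so these 2 of the 5 calls could be tested only with a difference. Fgf13 averaged 355 ± 207 in adult bladder (SD, n = 3) against 2541 in the pool, a difference of -2.85 with adjusted p = 0.0126. The call of Fgf13 was lost with median centring (-2.18, 0.0621), and those of Fgf7 and Fgfr2 were lost with the mean of the probe sets (1.17, 0.147 and 0.24, 0.786), where Fgf13 and Fgfr4 did not pass the filter. With adult replicate 2 as the only adult array, Fgf1 and Fgf13 kept their calls, while Fgf7 (0.145), Fgfr2 (0.194) and Fgfr4 (0.0624) did not. Fgfr2 was also not called without a trend (0.0502), without adult replicate 1 (0.065) or without adult replicate 3 (0.0929). Fgfr3 read 0.94 above the pool (0.11 to 1.77, adjusted p = 0.106) and was called with median centring (1.61, 0.0421) and with array weights (1.01, 0.0127). This comparison shares its adult arrays with the one between the ages and its pool with the one above, so its differences are not separate evidence.

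**Figure D4:**
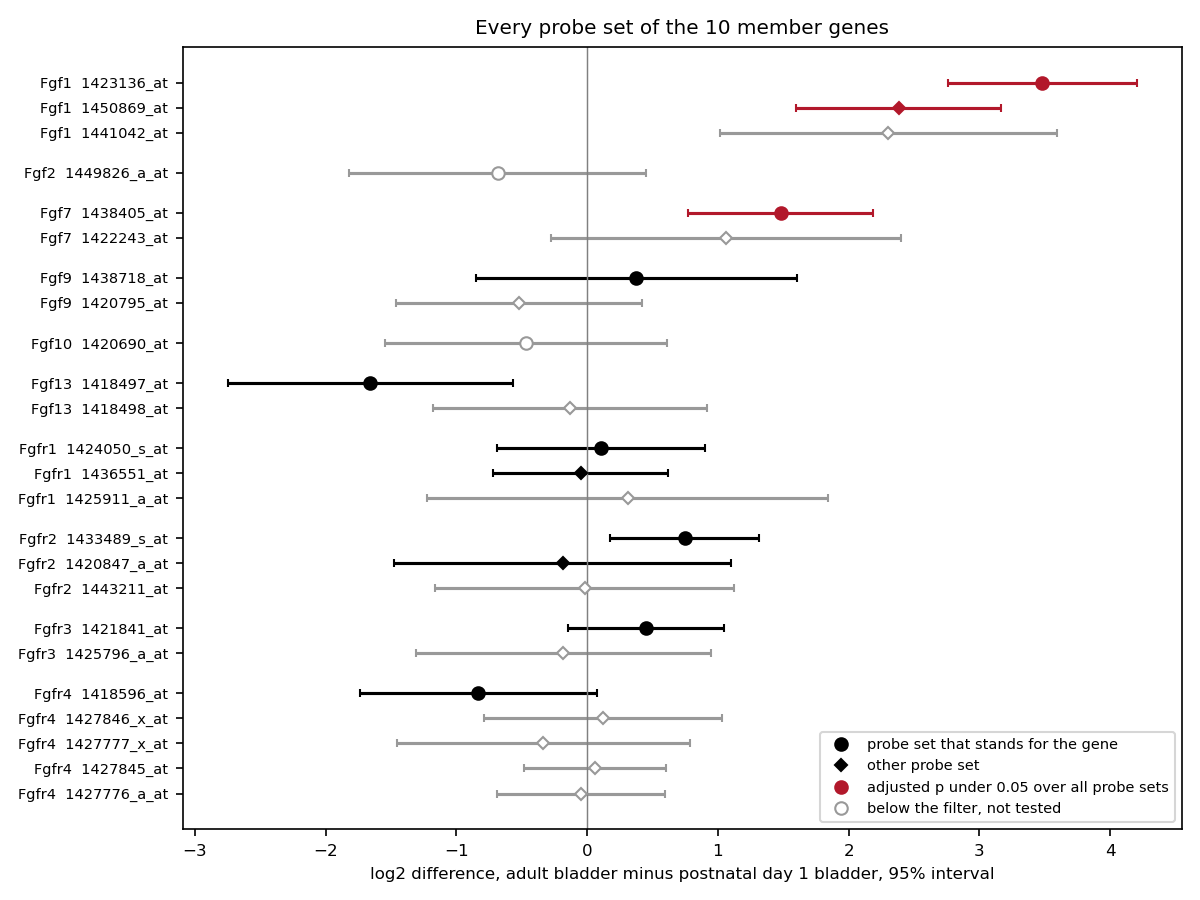
Log2 difference between adult and postnatal day 1 bladder, with 95% interval, for each of the 24 probe sets of the 10 genes, grouped by gene. Large circles stand for the gene, diamonds are its other probe sets, and red marks an adjusted p under 0.05 over all probe sets; 2 probe sets of Fgf1 and 1 of Fgf7 are red, and the 3 probe sets of Fgfr2 lie on both sides of 0.

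Downstream of the receptors, feedback inhibitors and targets of FGF and MAP kinase signalling were lower in adult bladder where they passed the test. Of 17 such genes on the array 13 were tested, with 0 called higher and 3 lower (all genes, 6.61% lower) and a median difference of -0.25, against -0.01 over all genes. Dusp6, the phosphatase that switches off the kinase ERK, had 6286, 5084 and 4097 in adult bladders, 12200.5, 14666.5 and 14388.5 in postnatal day 1 bladders and 7389 in the pool. The lowest newborn array was at 12200.5 and the highest adult one at 6286, and the fall was -1.42 (95% interval -1.97 to -0.88, adjusted p = 0.00424). Spry1, a Sprouty inhibitor of receptor tyrosine kinases, had 1181, 1401 and 1386 in adult bladders and 3535, 3896 and 2705 in newborn bladders (-1.31, 95% interval -1.91 to -0.71, adjusted p = 0.0108). Myc, a growth factor-induced transcription factor, fell by 1.49 on the log2 scale (adjusted p = 0.00821). Dusp6 was called in 18 of 18 alternatives, and Spry1 and Myc in 17 each. Both lost the call with adult replicate 2, the array without accessory gland transcripts, as the only adult array (Spry1 -1.23, adjusted p = 0.122, and Myc -1.72, adjusted p = 0.0521). Spry2 differed by -0.97 (adjusted p = 0.0779), Etv5, an ETS factor induced by FGFs, by -0.66 (0.172) and Dusp5 by -1.55 (0.224). Dusp5 had 75.1, 1296 and 72.2 in adult bladders and 899, 669.88 and 703 in newborn bladders, so adult replicate 2 lay above every newborn array and the other adult arrays below them. Spry4, Ccnd1, Egr1, Il17rd and Dusp4 read 0.26 to 0.51 higher in adult bladder without passing the test. Egr1 had 11663, 68406 and 11298 in adult bladders and 15700, 15530 and 17997 in newborn bladders. As with Dusp5, adult replicate 2 lay above every newborn array and the other adult arrays below them. Several of these genes respond to other growth factors too. Division markers moved in the same direction, with 4 of 4 tested called lower in adult bladder, against 6.61% of all genes. Their sums were 1276 to 1594 in adult against 17515 to 34208 in newborn bladders. Among them, Birc5 lay below the array median on every adult array. It entered through the newborn arrays alone and could be tested only with a difference. The part of the division markers in these differences was not tested.

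The same window before the start of Dusp6 and Spry1 is printed because both genes read lower in every adult array. The windows shown were picked by the direction of their genes, and a link between sequence and direction was not tested. Capitals mark CG as before (RefSeq, GRCm38.p6).
Dusp6, chr10:99262981-99263230, plus strand: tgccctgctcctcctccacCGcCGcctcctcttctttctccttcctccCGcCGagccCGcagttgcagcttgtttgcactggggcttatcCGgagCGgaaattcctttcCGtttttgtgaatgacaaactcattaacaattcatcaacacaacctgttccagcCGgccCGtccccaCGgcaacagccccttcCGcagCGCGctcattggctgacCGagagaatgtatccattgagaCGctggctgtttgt
Spry1, chr3:37639697-37639946, plus strand: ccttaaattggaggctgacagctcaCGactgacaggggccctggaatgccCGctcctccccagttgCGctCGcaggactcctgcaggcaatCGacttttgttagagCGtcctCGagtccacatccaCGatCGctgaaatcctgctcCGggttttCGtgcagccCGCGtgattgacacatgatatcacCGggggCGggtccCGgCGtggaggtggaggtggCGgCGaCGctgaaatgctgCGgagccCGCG
These 2 windows held 16 and 23 CG, with 56.4% and 62.4% of G and C. Spry1 held 1 GC box, at bases -60 to -55 from the start, Dusp6 none, and neither held TATAAA.

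**Figure D5:**
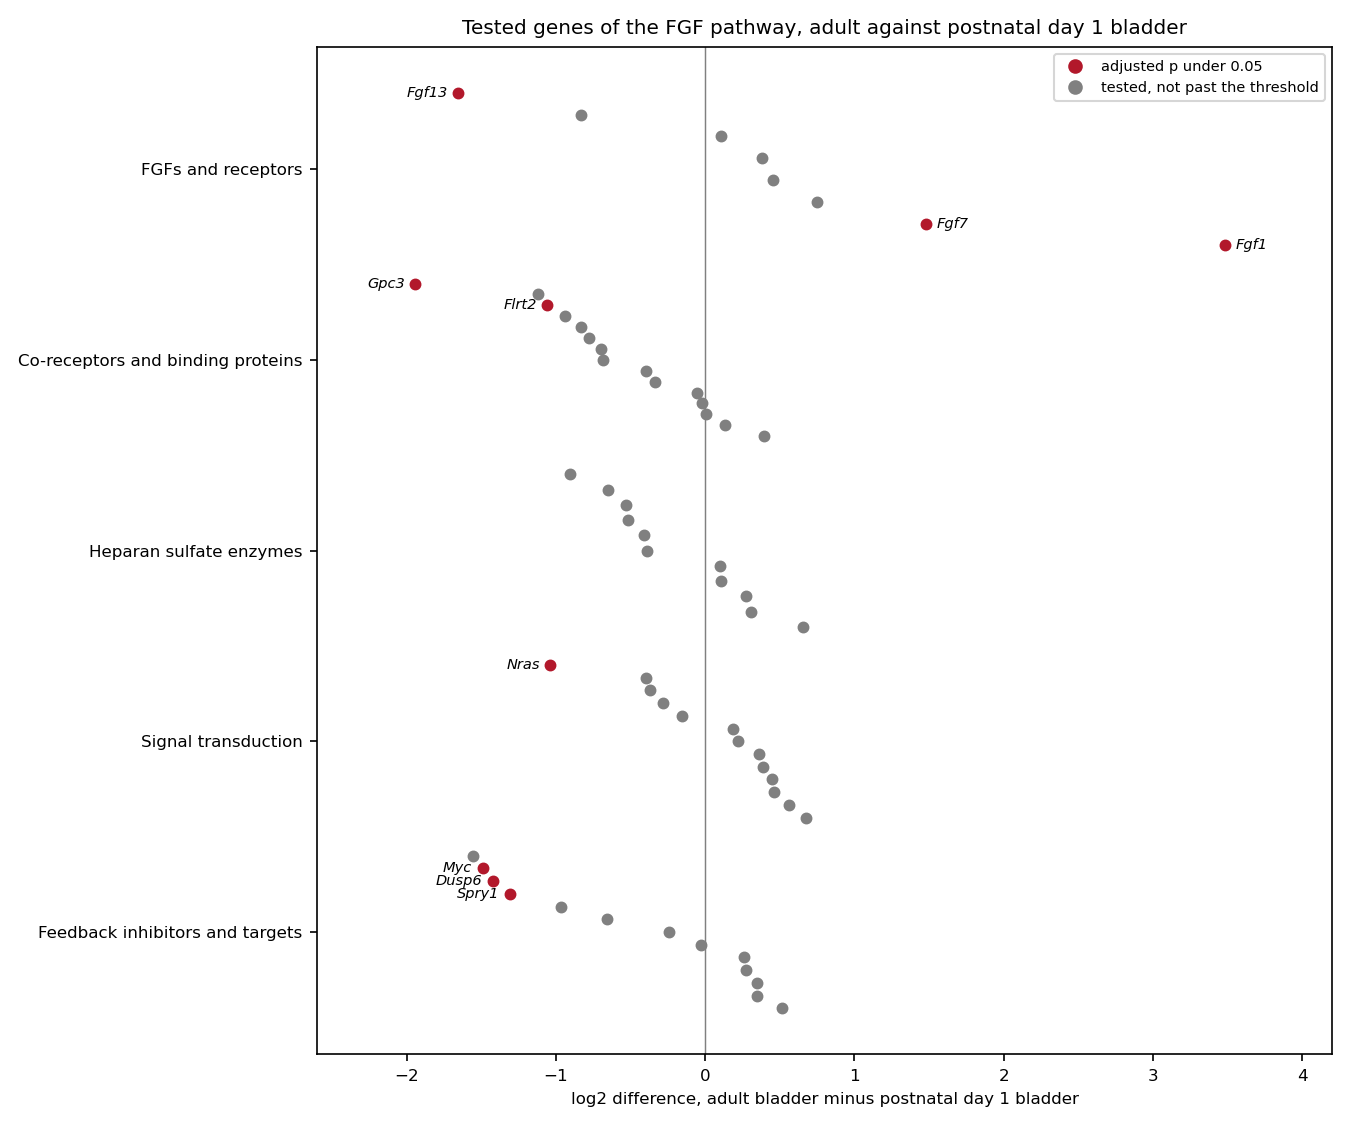
Log2 difference between adult and postnatal day 1 bladder for the tested members of the family and of 4 lists of pathway genes, 1 point per gene, ordered by value within a list. Red points passed the test and are named; the 6 red points outside the family lie below 0. The list of other ligands, with 1 tested gene, is not drawn.

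Among binding partners at the cell surface, the glypican Gpc3 and the membrane protein Flrt2 fell in adult bladder. Of 17 co-receptors and binding proteins 15 were tested, with 0 called higher, 2 lower (all genes, 5.88% higher and 6.61% lower) and a median of -0.68; 12 of the 15 differences were negative. Gpc3, a glypican that carries heparan sulfate, had 827, 703 and 612 in adult bladders, 3438, 3016 and 2273 in newborn bladders and 4550.3 in the pool. Its fall of -1.94 (95% interval -2.58 to -1.31, adjusted p = 0.00206) was called in 18 of 18 alternatives. Flrt2, a membrane protein whose relatives bind FGF receptors, fell by 1.06 on the log2 scale (adjusted p = 0.0478), a call made in 5 of 18 alternatives. Gpc1 (-0.94, adjusted p = 0.0586), Gpc4 (-0.78, 0.074) and Fgfbp1, a secreted carrier of FGFs (-1.12, 0.109), read lower without passing. Of the syndecans, Sdc3 was lower on every adult array (-0.68, 95% interval -1.27 to -0.10, adjusted p = 0.122), and Sdc1, Sdc2 and Sdc4 differed by -0.06 to 0.13. Fgfrl1, a receptor-like protein without a kinase domain, differed by 0.40 (adjusted p = 0.345).

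Of 11 heparan sulfate enzymes tested, 0 were called in limma, against 12.5% of all genes tested. Likewise 0 had an unadjusted p under 0.05, against 3268 of all 11929 genes tested. Hs2st1, a sulfotransferase, differed by -0.52 (adjusted p = 0.185), and the median was -0.39. Of 13 tested genes of signal transduction 0 were called higher and 1 lower, a share near the 6.61% of all genes, with a median of 0.22. That gene, Nras, a small GTPase, had 3514, 2274 and 3518 in adult bladders and 5428, 5633 and 8151 in newborn bladders (-1.04, adjusted p = 0.041), and its call was made in 6 of 18 alternatives, not with adult replicate 2 as the only adult array (-1.45, adjusted p = 0.069). Of 16 further ligand genes on the array 1, Fgf11, passed the filter between the ages, at 176, 589 and 279 in adult bladders and 565, 99 and 266 in newborn bladders (0.24, adjusted p = 0.829). Fgf18, a ligand of skeletal growth, averaged 81.8 ± 29.7 in adult bladder and 90.3 ± 38.8 at postnatal day 1 (SD over 3 arrays each), against 659 in the pool. It lay below the median of all 6 bladder arrays and entered the test through the pool alone, where it is high, so its differences of -2.46 for adult and -2.38 for newborn bladder are given as a description. Klb, a co-receptor of some endocrine FGFs, read 7.69 to 88.4 in adult and 15.1 to 73.1 in newborn bladders against 2548 in the pool. It too was below the array median in every bladder and entered through the pool alone, with differences of -4.71 for adult and -4.76 for newborn bladder. Over the 5 lists, 4 of 61 tested genes (6.56%, against 13.2% of all genes) were called between newborn bladder and the pool, 1 higher (Braf, a kinase below Ras, 1.41) and 3 lower (Fgf18, Klb and Fgfbp1). Between adult bladder and the pool 9 of 58 were called (15.5%, against 20.2% of all genes), 3 higher (Sdc4, the heparanase Hpse and Braf, by 1.24, 1.83 and 1.87) and 6 lower (Fgf18, Fgf14, Klb, Gpc3, Fgfbp1 and Gpc1, by -4.71 to -1.79). Fgf14 had 51.8, 38.75 and 4.21 in adult bladders, below the array medians, and 1543 in the pool. Like Fgf18 and Klb it entered this comparison through the pool alone. Such calls, and those of Fgf18 and Klb for newborn bladder, could be tested only with a difference. Of the feedback inhibitors and targets limma called 0 in either comparison with the pool. At an unadjusted p under 0.05 there were 4 of 16 tested for newborn bladder, against 3614 of all 13744 genes tested. Dusp6, Spry1 and Spred2 read higher than the pool, by 0.89, 1.01 and 0.92, and Spry4 lower (-1.45). For adult bladder there were 3 of 14, against 4410 of all 13504 genes tested. Myc read lower (-1.24), and Il17rd and Spred2 higher (1.02 and 0.90).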

How the data were processed

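Total RNA of whole bladders or whole pups underwent 2 rounds of amplification and was hybridized to 1-colour Affymetrix mouse arrays, per the labels. The deposited values are probe set intensities on a linear scale; the submitters' processing notes name GCOS, with no version, and how probes were summarised was not stated in the labels. Genes were named from the platform annotation: of 45101 probe sets, 64 were controls, 34945 name 1 gene, 932 several and 9160 none. Before testing, 49 (the rounded 20th percentile) was added to every intensity and log2 taken, without centring. The array medians then spanned 0.48 on the bladder arrays and 0.91 on all 7, so centring was an alternative. One probe set stood for each gene. Differences were tested two-sided in limma 3.58.1 under R 4.3.3 by lmFit and eBayes with a variance trend, and p-values were adjusted over all genes tested. The fit of the ages held the 6 bladder arrays and the fits against the pool all 7. The labels call each bladder sample unpooled; they give no litter, and p-values measure the spread between these samples. Arrays carry no read depth, and 3 per group limit the precision. The fits were tested on simulated data. Named were the 10 genes, list members past the threshold, up to 3 further members by p, and the 3 genes most like each of the 3 members with the smallest p; of marker lists, up to 3 by mean level. Other genes named (Spry4, Ccnd1, Egr1, Il17rd, Dusp4, Sdc1, Sdc2, Sdc3, Sdc4, Fgfrl1, Gap43, Phox2a, Elavl3, Dbh, Syt1, Col1a1, Thy1, Trp63, Myh3, Tnnt3, Birc5, Spred2, and those called only against the pool) were chosen after their values were seen. The members and lists were chosen with earlier results of these data known.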

Additional observations from a re-analysis of the deposited data

How the results depend on the processing

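Each result was recomputed with constants of 10 and 200, median centring, quantile normalization, no filter, no trend, the mean of the probe sets, array weights, all 7 arrays in the fit of the ages, without each bladder array, with adult replicate 2 as the only adult array, and without adult replicate 2 and postnatal day 1 replicate 3, which have the highest spike-in signal. The fit over all probe sets was chosen after seeing the data. Genes tested stayed the same when arrays were left out. Fgf1 was called between the ages in 18 of 18 alternatives (2.72 to 3.74), Fgf7 in 16 (1.20 to 1.69) and Fgf13 in 10 (-2.72 to -0.89). The 3 genes called between the ages became 2 to 4. Of all genes, 1490 were called between the ages, 950 with median centring, 3312 with array weights, 783 with adult replicate 2 as the only adult array and 801 to 1873 without single arrays. For newborn bladder against the pool, 1814 became 3064 with array weights and 2832 without the 2 spike-in-rich arrays, and 0 members became 1 with the constant 200, without a trend and with array weights, and 0 to 1 without single arrays. For adult bladder against the pool, 2731 became 5473 with array weights, 1595 with adult replicate 2 as the only adult array and 4181 without the 2 spike-in-rich arrays, and 5 members became 1 with the mean of the probe sets and 2 with adult replicate 2 as the only adult array. The causes were not tested. No paired analysis was possible because the labels give no replicate numbers that the groups share. Probe sets below the array median carry little signal over background, so Fgf2 and Fgf10 give no usable comparison.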
